A study of Mus musculus with 18 samples.

Results

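The miR-34 family was followed across 4 dose groups of mouse liver through its 4 names on an Agilent mouse miRNA array, mmu-miR-34a, mmu-miR-34b-3p, mmu-miR-34b-5p and mmu-miR-34c, written without the species prefix from here on. The members were every non-control spot that carried one of these names, and made up 4 of 576 names, 8 of 1712 probes and 80 of 11540 spots on an array. Each member had 2 probes, each printed as 10 spots. All animals were male Muta™Mouse (transgenic strain 40.6, which carries a bacterial lacZ reporter for scoring mutations), aged 25 weeks, and were gavaged daily for 28 days. Olive oil alone was given to the control animals, of which 3 were on the arrays used here. Groups of 5 animals were given BaP, or benzo(a)pyrene, in olive oil at 25, 50 or 75 mg/kg/day. BaP belongs to the polycyclic aromatic hydrocarbons, which liver enzymes turn into products that bind DNA. Liver was taken 3 days after the last dose, and each animal was run on 1 array, 18 in all. The lacZ transgene, the olive oil, the sex and the age were common to every group, so the groups differed by label in BaP dose alone. Replicate numbers below only name arrays.

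The miR-34 family is transcribed under the control of p53, the transcription factor that is stabilised when DNA is damaged. In the mouse the Mir34a gene lies on a different chromosome from the Mir34b and Mir34c genes, which are neighbours and are transcribed together. A miRNA acts by pairing its seed, bases 2 to 8 from the 5′ end, with target mRNAs, and known targets of miR-34 are cell cycle and survival genes such as Ccnd1, Cdk6 and Bcl2. MiR-34b and miR-34c are best known from multiciliated epithelium, in airway, oviduct and brain ventricles, and from testis. The miR-449 family is a separate family with the same seed.

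The mature sequences are shown because the seed decides which names on the array could carry the same targeting function. RefSeq (GRCm38.p6) gave mature sequences for 3 of the 4 members and for 3 of 4 related names. The seed is in capitals, and the newer RefSeq name is given beside the name on the array.
miR-34a (miR-34a-5p): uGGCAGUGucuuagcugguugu
miR-34b-5p: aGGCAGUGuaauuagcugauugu
miR-449a (miR-449a-5p): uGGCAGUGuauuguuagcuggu
miR-449c (miR-449c-5p): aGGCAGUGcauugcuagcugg
miR-34b-3p: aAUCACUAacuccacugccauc
miR-34c* (miR-34c-3p): aAUCACUAaccacacagccagg

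MiR-34a, miR-34b-5p, miR-449a and miR-449c shared the seed GGCAGUG, and no other of the 1679 mature mouse names in the RefSeq table carried it. MiR-34b-3p, the opposite arm of the miR-34b hairpin, had the seed AUCACUA and shared it with miR-34c*. Counted from the 5′ end without gaps, miR-34a matched miR-34b-5p at 11 of 22 positions, miR-449a at 15 of 22 and miR-449c at 12 of 21, and it matched miR-34b-3p at 8 of 22. MiR-34c and miR-449b had no matched sequence in that table and are named only. Their absence from the names listed with GGCAGUG therefore says nothing of their seed. The mature miR-34a lies at chr4:150068473-150068494 on the plus strand, inside the Mir34a hairpin (chr4:150068454-150068555). MiR-34b-5p lies at chr9:51103610-51103632 and miR-34b-3p at chr9:51103574-51103595, both on the minus strand. The Mir34b hairpin (chr9:51103562-51103645) and the Mir34c hairpin (chr9:51103034-51103110) are on the same strand with 451 bases between them.

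The 18 arrays came from 3 slides. Slide 1 held control replicate 1 and replicates 1 and 2 of every dose, slide 2, without a control, held replicates 3 and 4 of the upper doses, and slide 3 held the other 7 arrays. The median of the negative-control spots lay between 42 and 76 intensity units, and from 57 to 144 names per array were detected by the scanner software. The hepatocyte miRNA miR-122 was well above background on all 18 arrays, with a normalised log2 signal of 13.3 to 13.8. Of markers fixed for other cell types, 0 of 3 neuron miRNAs and 0 of 5 miRNAs of multiciliated epithelium were well above background on any array. Those 5 were miR-34b-5p, miR-34c, miR-449a, miR-449b and miR-449c, so they add no check separate from the names reported below. Well above background on some array were 1 of 2 endothelial, 2 of 5 mesenchymal, 2 of 4 skeletal muscle and 4 of 7 blood and immune miRNAs. A probe was taken as present on an array when at least 0.5 of its usable spots were well above background, and was tested when present on at least 0.8 of the arrays of some group. This left 112 probes of 69 names, among them both probes of miR-34a and no probe of the other 3 members.

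MiR-34a was the 1 family member with a measurable level in liver, and its signal was higher in each successive dose group. On the main scale, a normalised log2 signal that still contains the background, the controls read 5.64, 5.89 and 6.23. The livers at 25 mg/kg/day read 6.00, 5.79, 6.43, 6.90 and 6.54. Over all slides, 3 of these 5 arrays were above every control and replicates 1 and 2, both from slide 1, were inside the control range. Within slides, all 5 were above the controls of their own slide on this normalised scale. The share of all names that part in this way within slides was not counted. The mean difference was 0.25 in slide 1 (2 arrays against 1) and 0.56 in slide 3 (3 against 2). Before normalization, replicate 5 at 25 mg/kg/day was below both slide 3 controls for each miR-34a probe. Its median signals were 73.5 intensity units against 80.5 and 75, and 63.5 against 65.3 and 65. At 50 mg/kg/day the values were 7.18, 6.67, 6.92, 6.93 and 6.90, and at 75 mg/kg/day they were 7.89, 8.03, 7.60, 7.67 and 7.89. Every array at 50 and at 75 mg/kg/day was above every control, and every array at 75 was above every array at 50. Of the 69 names tested, 4.35% had all 50 mg/kg/day arrays above all controls, 4.35% had all 75 above all controls, and 1.45%, which is miR-34a alone, had all 75 above all 50. At 50 mg/kg/day, 4 of 5 arrays were above the highest array at 25 mg/kg/day. In a sample of whole liver, a level per cell cannot be told apart from the number of cells that hold the miRNA.

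**Figure D1:**
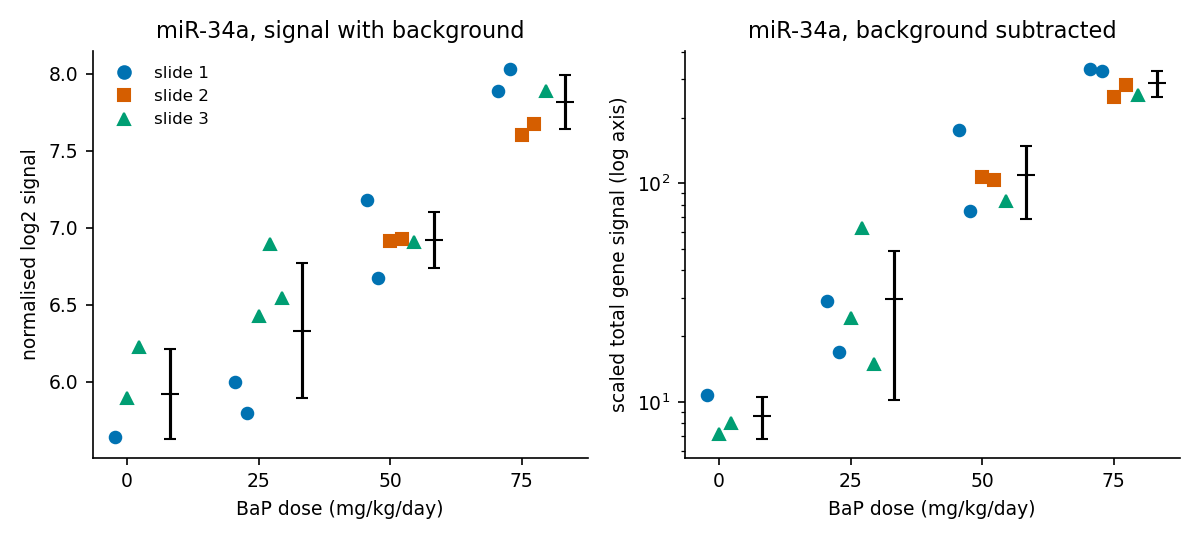
MiR-34a signal on each array against BaP dose in mg/kg/day, as normalised log2 signal with its background (left) and as background-subtracted scaled total gene signal on a log axis (right). Points are arrays with shape and colour by slide, and bars are the mean ± SD of 3 controls or 5 dosed animals; every array at 75 lies above every array at 50 mg/kg/day in both panels, and only in the right panel do all arrays at 25 mg/kg/day lie above all controls.

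The P values below measure the spread between these arrays, 1 per animal. The steps between neighbouring doses were tested in limma with slide as a block and the Benjamini-Hochberg adjustment over the 69 names. From control to 25 mg/kg/day the log2 change of miR-34a was 0.43 (95% interval 0.08 to 0.79; adjusted P = 0.378), and 0% of names were called. From 25 to 50 mg/kg/day miR-34a rose by 0.74 ± 0.16 (SE; adjusted P = 0.0220), and from 50 to 75 mg/kg/day by 0.90 ± 0.14 (SE; adjusted P = 0.00109). MiR-34a was the only name called in either step (1.45% of names), and the next largest rises were 0.38 for miR-451 and 0.15 for miR-21. The groups ranked by dose from the controls upward, and the first pair of neighbours missed the threshold of the adjusted test while the other pairs passed it. For that first pair the exact two-sided permutation P was 0.214 over all splits and 0.0333 within slides, the smallest that the 30 splits allow, and 0.0833 after adjustment over the 5 comparisons. The step from 25 to 50 mg/kg/day was 1.03 within slide 1 (2 against 2 arrays) and 0.28 within slide 3 (1 against 3). It was not past the threshold without replicate 1 at 25 (adjusted P = 0.0610), replicate 2 at 25 (adjusted P = 0.121) or replicate 1 at 50 mg/kg/day (adjusted P = 0.107), nor without slide 2 (adjusted P = 0.193). The step from 50 to 75 mg/kg/day was 1.03 within slide 1, 0.71 within slide 2 and 0.99 within slide 3.

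The exact two-sided permutation test on the same values, with no model, gave P = 0.0159 for 50 against 25 mg/kg/day and P = 0.00794 for 75 against 50 (n = 5 each), the latter the smallest P that the 252 splits allow. With splits within slides the exact P was 0.0833 for 50 against 25, where 0.0417 is the smallest possible, and 0.0278 for 75 against 50, the smallest possible. Adjusted over the 5 comparisons made, these became 0.0223 and 0.0223 for all splits and 0.111 and 0.0833 within slides.

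For each 25 mg/kg/day of dose the log2 signal of miR-34a rose by 0.71 ± 0.06 (SE; adjusted P = 1.19e-07), against slopes from -0.10 to 0.06 for the other 68 names. The slope was past the threshold for 10.1% of names, 2.9% upward and 7.25% downward, and for 9.82% of probes, both miR-34a probes included (0.87 for the brighter and 0.56 for the dimmer). A curvature term, the step from 50 to 75 less the step from control to 25 mg/kg/day, was 0.46 for miR-34a (95% interval -0.01 to 0.93) and missed the threshold (adjusted P = 0.957, limma; 0% of names called), so a bend away from a straight line on the log2 scale was not resolved. With total gene signal, 1 of the background-subtracted measures, this term was -0.12. In 13 of 15 alternatives it kept its sign and stayed short of the threshold, and over all 15 it ran from -0.12 to 0.69.

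The normalised signal above keeps its background, so that its changes understate those of a dim miRNA. Agilent's total gene signal subtracts the background and sums over the probes of a miRNA, and on this scale miR-34a was called detected on all 18 arrays. Before any scaling between arrays, the controls read 16.4, 12.1 and 7.13. The livers at 25 mg/kg/day read 42.6, 19.8, 24.2, 21.0 and 6.72, so that 4 of 5 were above every control and replicate 5 was below them all. At 50 mg/kg/day the readings were 76.7, 75.7, 127, 104 and 113. At 75 mg/kg/day they were 226, 264, 188, 209 and 318. The readings at 50 and 75 mg/kg/day overlapped neither with each other nor with those of the lower groups. The share of all names that part in this way before scaling was not counted.

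Scaled to the upper quartile of the names detected on every array, total gene signal of miR-34a was 8.66 ± 1.89 in controls (SD, n = 3), 29.6 ± 19.3 at 25, 109 ± 39.8 at 50 and 288 ± 39.3 at 75 mg/kg/day (SD, n = 5 each). The means stood in ratios of 3.68 for 50 against 25 and 2.65 for 75 against 50 mg/kg/day, where the unscaled means gave 4.34 and 2.43. The ratio of 25 mg/kg/day to control was 3.42 with scaling and 1.93 without it, and replicate 4 at 25 mg/kg/day went from 21.0 to 62.6 on scaling. The control readings include a probe that was not well above background on any control, so the ratios to control depend on the background subtraction as well. On this scale all 5 arrays at 25 mg/kg/day, with readings from 15.0 to 62.6, were above the controls, which read 7.17 to 10.8. MiR-34a was the 1 name of 69 (1.45%) higher on every array at 25 mg/kg/day than on any control, and also the 1 name (1.45%) with every array at 50 above every array at 25 and the 1 name (1.45%) with every array at 75 above every array at 50 mg/kg/day. Every array was above every control for 10.1% of names at 50 and for 15.9% at 75 mg/kg/day. The log2 change at 25 mg/kg/day was 1.58 ± 0.39 (SE) and did not pass the threshold in limma (adjusted P = 0.0886). The step from 50 to 75 mg/kg/day was 1.46 ± 0.34 (SE; adjusted P = 0.0522) and lay just outside the threshold on this scale. The exact two-sided permutation P for 25 mg/kg/day against control, a test chosen after the values were seen, was 0.0357 over all 56 splits and 0.0667 over the 30 splits within slides.

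The number of names detected on an array differed between arrays of a group, and was set beside the normalised miR-34a signal. Among controls, the arrays with 115, 98 and 81 detected names read 5.64, 5.89 and 6.23 for miR-34a. At 25 mg/kg/day, the slide 1 arrays with 144 and 119 detected names read 6.00 and 5.79, and the slide 3 arrays with 94, 70 and 57 read 6.43, 6.54 and 6.90. At 50 mg/kg/day, arrays with 80, 107, 112, 93 and 94 detected names read 7.18, 6.67, 6.92, 6.93 and 6.90. At 75 mg/kg/day, those with 94, 106, 92, 82 and 92 read 7.89, 8.03, 7.60, 7.67 and 7.89. Arrays with fewer detected names tended to read higher among the controls and at 25 and 50 mg/kg/day. At 50 mg/kg/day the array with the fewest read highest, but that with the most did not read lowest. By contrast, at 75 mg/kg/day the array with the most detected names read highest. This number was then added to the fit. With dose and slide in the fit, miR-34a fell by 0.10 ± 0.03 log2 units per 10 more detected names (SE; adjusted P = 0.0253, limma), one of 24 names of 69 that moved with this number. With the number of detected names added to the fit as a covariate, the changes of miR-34a from control were 0.40, 1.08 and 1.93 at 25, 50 and 75 mg/kg/day, and their adjusted P values 0.125, 0.000198 and 1.94e-07. The steps from 25 to 50 and from 50 to 75 mg/kg/day were then 0.67 (adjusted P = 0.00660) and 0.86 (adjusted P = 0.000161). The covariate, chosen with the values in view, changed no call for miR-34a. It comes from the signals of the same arrays and differed between slides and dose groups. Its part in the dose differences was not tested.

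The 2 probes of miR-34a gave changes of different size, and each was followed on its own. For the brighter probe, the median signal over spots, before normalization, was 60, 80.5 and 75 intensity units in controls and 83.5, 58, 97, 99.5 and 73.5 at 25 mg/kg/day. It was 123, 121, 212, 191 and 198 at 50 mg/kg/day and 253, 294, 292, 311 and 434 at 75 mg/kg/day. The raw signal of this probe did not overlap between 25 and 50 mg/kg/day nor between 50 and 75 mg/kg/day, while control and 25 mg/kg/day overlapped. For the dimmer probe, the controls read 52, 65.3 and 65 and the livers at 25 mg/kg/day 64.5, 49.5, 68, 77 and 63.5. At 50 mg/kg/day it read 89.5, 86.8, 108, 106 and 96, and at 75 mg/kg/day 164, 182, 128, 134 and 163. This probe too was higher on every array at 75 than on any at 50 mg/kg/day. The share of all probes whose raw signal parted the dose groups in these ways was not counted.

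The spots of the probes bore these levels out to different depth. In controls the dimmer probe had 0 of 10 spots well above background on all 3 arrays, and at 25 mg/kg/day it had 10, 4, 0, 0 and 0. On each of the 10 arrays of the upper doses, every usable spot of this probe was well above background. The brighter probe had 9 of 9 usable spots well above background on control replicate 1, 9 of 10 on replicate 2 and 2 of 10 on replicate 3. The SD between spots of a probe on 1 array was 0.08 log2 units for the brighter and 0.06 for the dimmer probe (medians over 18 arrays), against 0.27 and 0.25 between arrays after dose and slide were removed. The spread between arrays was larger than that between spots.

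In the fit by probe (limma, adjusted over 112 probes), the brighter probe rose by 1.48 ± 0.19 at 50 (SE; adjusted P = 0.000171) and by 2.52 ± 0.19 at 75 mg/kg/day (SE; adjusted P = 1.68e-07). The dimmer probe rose by 0.86 ± 0.18 (SE; adjusted P = 0.0155) and 1.62 ± 0.18 (SE; adjusted P = 1.29e-05). Both probes were called at both doses, where 2.68% of probes were called at 50 and 7.14% at 75 mg/kg/day. The dimmer probe was present on 0 of 3 controls and on 1 of 5 livers from the lowest dose. It therefore passed the filter through the upper doses alone, the groups whose rise was tested. With no filter on dim probes its call was lost at 50 mg/kg/day and kept at 75 mg/kg/day. At 25 mg/kg/day neither of the 2 probes was called, with changes of 0.56 (95% interval 0.18 to 0.94) for the brighter and 0.31 (-0.05 to 0.67) for the dimmer, and 0% of probes were. The step from 25 to 50 mg/kg/day was past the threshold for the brighter probe (0.92, adjusted P = 0.00795, 0.893% of probes called) and not for the dimmer (0.55, adjusted P = 0.0817). The step from 50 to 75 mg/kg/day was past it for both, at 1.03 (adjusted P = 0.000808) and 0.76 (adjusted P = 0.00558), with 1.79% of probes called. Because the dimmer probe was not well above background on any control, its rise has only a lower limit on the normalised signal, at least 1.53-fold for the 50 mg/kg/day group and at least 2.59-fold for the 75 mg/kg/day group. The call of the dimmer probe at 50 mg/kg/day was lost without control replicate 1 (adjusted P = 0.274), control replicate 2 (0.0522) or replicate 1 at 50 mg/kg/day (0.0580), and without slide 2 (0.0858).

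**Figure D2:**
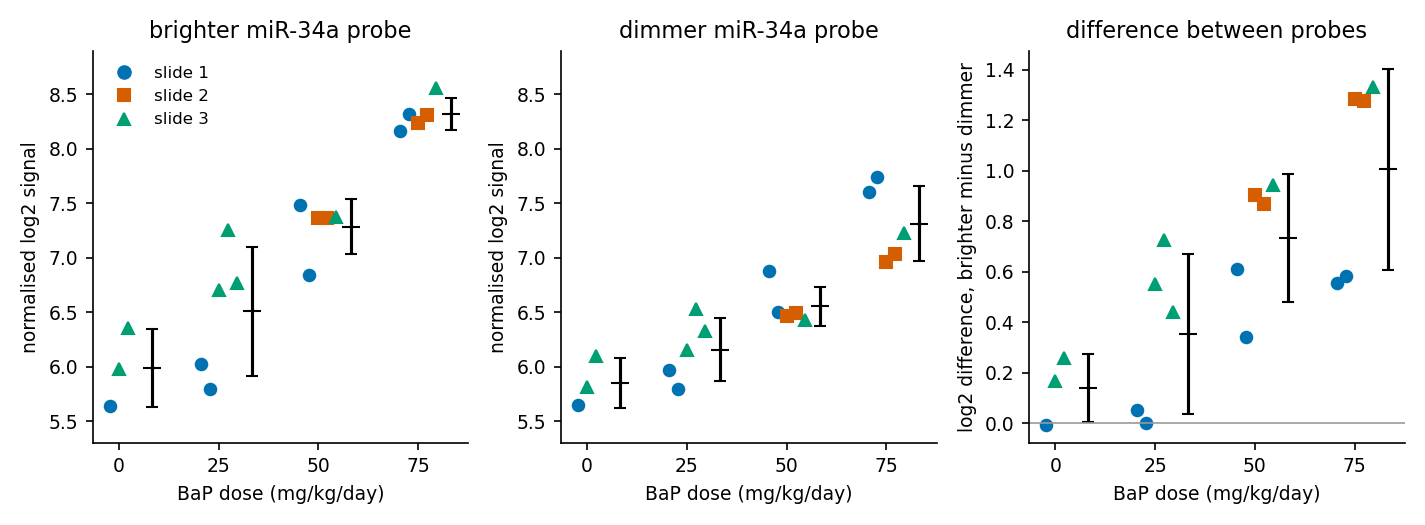
Normalised log2 signal of the brighter and the dimmer miR-34a probe on each array against BaP dose, and the log2 difference between them on the same array. Points are arrays with shape and colour by slide, and bars are the mean ± SD of 3 controls or 5 dosed animals; the difference has a mean of 0.14 in controls and 1.01 at 75 mg/kg/day, with the slide 1 arrays lowest in every group.

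The log2 difference between the probes, brighter less dimmer, was taken on the normalised signal, which keeps its background. It had a higher mean in each successive dose group, but no comparison of it passed the threshold after adjustment. It was -0.01, 0.17 and 0.26 on the controls and 0.05, 0.00, 0.55, 0.72 and 0.44 at 25 mg/kg/day. It was 0.61, 0.34, 0.90, 0.87 and 0.94 at 50 and 0.56, 0.58, 1.28, 1.28 and 1.33 at 75 mg/kg/day. All arrays at 50 and 75 mg/kg/day were above all controls, and within each dose the slide 1 arrays had the smaller differences. How many other names have a probe difference that parts the groups in this way was not counted. The exact two-sided permutation test against the 3 controls gave P = 0.304 at 25, 0.0357 at 50 and 0.0357 at 75 mg/kg/day (n = 5 each), and 0.0893 for both of the latter after adjustment over the 5 comparisons. For 75 against 50 mg/kg/day the exact permutation P was 0.214, with a step of 0.09 in slide 1. Against the control of slide 1, the difference at 75 mg/kg/day was wider by 0.58, and against the 2 controls of slide 3 by 1.12. Within slides the smallest P that 9 splits allow at 50 and 75 mg/kg/day is 0.111. The dimmer probe was not well above background on any control and was present on 1 of 5 arrays at 25 mg/kg/day. The part of the background in the widening was not tested. With background-subtracted scaled signal, the group means of the brighter and dimmer probe were 12.1 and 2.89 in controls and 42.4 and 11.0 at 25 mg/kg/day. They were 119 and 43.7 at 50 and 302 and 114 at 75 mg/kg/day. On that scale the brighter mean was a smaller multiple of the dimmer mean at 75 mg/kg/day than in controls, the opposite direction to the normalised signal. A change of their ratio with dose was not tested on that scale.

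The other 3 members, miR-34b-3p, miR-34b-5p and miR-34c, were not detectable at any dose. Agilent's software called each of them detected on 0 of 18 arrays, and none of their 6 probes was present on any array. Of their 1080 spots over the 18 arrays, 6 were well above background, and all 6 were spots marked as outliers, 3 of miR-34b-3p and 3 of miR-34b-5p. MiR-34a, counted the same way, was detected on 18 of 18 arrays.

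The signal of these probes lay near or under that of the negative controls of the same array. The median signal over spots, divided by the negative-control median, ran from 0.88 to 1.03 for miR-34b-3p, from 0.87 to 1.04 for miR-34b-5p and from 0.87 to 1.02 for miR-34c. At or below 1 were 34, 34 and 35 of the 36 values of each (2 probes on 18 arrays), and no value was in the upper 5% of the negative controls. All 5 values above 1 were at 75 mg/kg/day, 5 of the 30 there, and came from 1 probe of each member on replicates 1, 2 and 3. The medians over the 6 probes were 0.946 in controls and 0.932, 0.940 and 0.935 at the successive doses. The brighter miR-34a probe read 1.12 to 1.33 on this scale in controls and 4.00 to 6.83 at 75 mg/kg/day. The presence of miR-34b and miR-34c below this limit of the array cannot be told from these values.

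**Figure D3:**
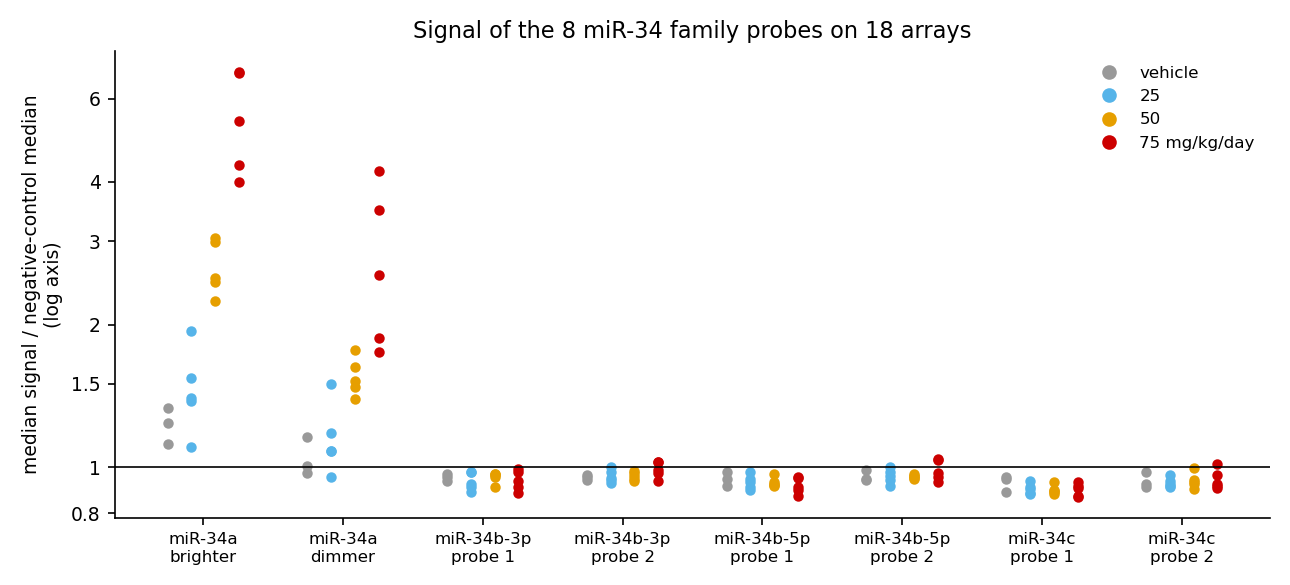
Median signal of each of the 8 miR-34 family probes divided by the median of the negative-control spots of the same array, on a log axis, with 1 point for each of 18 arrays coloured by BaP dose. The 2 miR-34a probes lie above the line at 1 at 50 and 75 mg/kg/day and reach 4.00 to 6.83 for the brighter probe at 75 mg/kg/day, whereas the 6 probes of miR-34b-3p, miR-34b-5p and miR-34c lie between 0.87 and 1.04, with the 5 values above 1 all at 75 mg/kg/day.

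A fit of all 576 names with no filter on dim probes also covered these members, whose signals lie at the level of the negative controls, so no fold is given. At 75 mg/kg/day the log2 difference from control was 0.03 ± 0.03 for miR-34b-3p, 0.06 ± 0.02 for miR-34b-5p and 0.03 ± 0.02 for miR-34c (SE), with adjusted P of 0.727, 0.142 and 0.462 in limma. The slope of miR-34b-5p over dose was 0.02 log2 units per 25 mg/kg/day (adjusted P = 0.0700, limma). None of the 3 was past the threshold at any dose, where 1.56% of the 576 names were called at 75 mg/kg/day and 1.39% on the slope. Among the 436 names present on no array, the differences at 75 mg/kg/day ran from -0.10 to 0.07, with the middle 90% between -0.04 and 0.03. MiR-34b-3p and miR-34c lay inside this middle range, and miR-34b-5p lay above it and inside the full range. On the slope over dose, where the middle 90% of these names ran from -0.01 to 0.0105 and the highest was 0.0220, miR-34b-5p (0.0192) and miR-34c (0.0121, adjusted P = 0.404) lay above the middle range and miR-34b-3p (0.0091) inside it.

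The related names gave the same reading. MiR-34c*, miR-449a, miR-449b and miR-449c were called detected on 0 of 18 arrays, and their highest ratios to the negative-control median were 0.97, 1.01, 0.98 and 0.96. Their differences at 75 mg/kg/day in the fit without a filter were 0.01, -0.03, -0.02 and 0.03, with adjusted P from 0.368 to 0.738. Of the array names with a known seed of GGCAGUG in the RefSeq table, miR-34a was the 1 with a signal above background in these livers.

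Other miRNAs that have been tied to p53 did not move as miR-34a did. Of 23 names listed (the miR-34 names, miR-192, miR-194, miR-215, miR-107, miR-143, miR-145, miR-200c, miR-141, the miR-15 and miR-16 names and others), 22 were on the array and 12 were tested. At 25 mg/kg/day none of the 12 was called, at 50 mg/kg/day miR-34a alone was called, where 2.9% of all names were, and at 75 mg/kg/day miR-34a rose and miR-199a-3p fell, where 5.8% of all names were called. MiR-199a-3p, which is enriched in mesenchymal cells, fell by 0.22 ± 0.05 (SE; adjusted P = 0.00931). Its call was lost without control replicate 1 (adjusted P = 0.107), and with other scalings and background settings given with the limits at the end. The median log2 change of the 12 was 0.03, -0.02 and -0.04 at the successive doses, beside -0.02, -0.02 and -0.03 for all 69 names. For the 11 without miR-34a it was 0.01, -0.03 and -0.08. On the slope over dose, miR-34a and miR-15b, a relative of miR-16 that targets cyclin mRNAs, were higher and miR-199a-3p lower. MiR-15b had a slope of 0.06 ± 0.02 (SE; adjusted P = 0.0166) beside the 0.71 of miR-34a. This slope was -0.0023 with array medians centred in place of loess, and it was not past the threshold without replicate 1 (adjusted P = 0.0616) or replicate 5 (adjusted P = 0.0708) at 75 mg/kg/day.

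**Figure D4:**
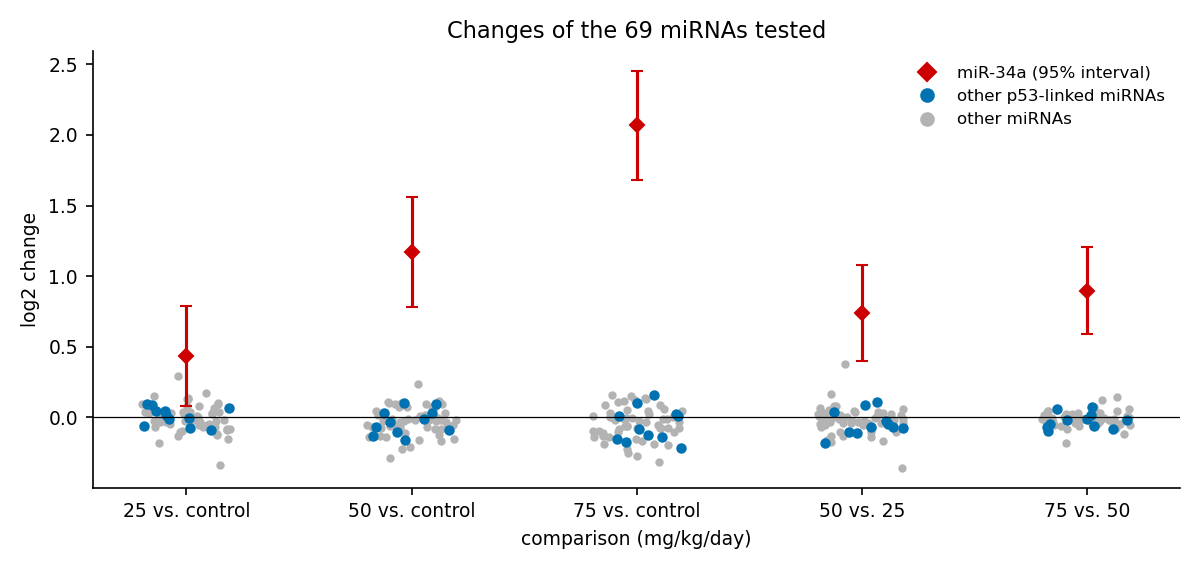
Log2 change of each of the 69 miRNAs tested in 5 comparisons (limma with slide as a block), with miR-34a as a diamond with its 95% interval, the 11 other p53-linked miRNAs in blue and the remaining miRNAs in grey. The change of miR-34a is 1.17 at 50 and 2.07 at 75 mg/kg/day against control, and the next highest changes in these comparisons are 0.23 and 0.16.

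The miRNAs whose pattern over the 18 arrays was most like that of miR-34a were found by correlating log2 signals after slide means were removed. The highest of the 68 Pearson coefficients was 0.69 for miR-15b, followed by 0.69 for miR-33, which lies in an intron of Srebf2, and 0.54 for miR-27a. The permutation P within slides was 0.00514, 0.00809 and 0.0516, and 0.0699, 0.0917 and 0.234 after adjustment over the 68. Spearman coefficients were 0.61, 0.70 and 0.54, with permutation P of 0.0140, 0.00780 and 0.0524, and 0.136, 0.105 and 0.210 after adjustment. Without the 2 arrays farthest from the median of miR-34a, replicates 2 and 5 at 75 mg/kg/day, the Pearson coefficients were 0.61, 0.79 and 0.64. With dose means removed too, they were -0.18 for miR-15b, 0.66 for miR-33 and -0.01 for miR-27a. The coefficients of miR-15b and miR-27a were near or below 0 within doses, and that of miR-33 was 0.66, with 2 of the 68 miRNAs above it and 10 above 0.5 within doses. None of the positive coefficients was past the threshold after adjustment. The 3 Pearson coefficients past it were negative, -0.86 for let-7c, -0.76 for miR-199a-3p and -0.72 for miR-130a. Their permutation P adjusted over the 68 was 0.00272, 0.0243 and 0.0243. Their Spearman coefficients were -0.89, -0.80 and -0.76 (permutation P adjusted over the 68 of 0.00204, 0.0109 and 0.0323). Without the same 2 arrays the Pearson coefficients were -0.89, -0.72 and -0.83, and with dose means removed they were -0.54, -0.09 and -0.33. MiR-26a, on the p53-linked list, was past the threshold by Spearman only (-0.69, permutation P adjusted over the 68 of 0.0263). Its Pearson coefficient was -0.50 (adjusted permutation P = 0.255). All these miRNAs share arrays with miR-34a and so share each array's number of detected names, whose part in these coefficients was not tested.

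Markers of other cell types were set beside the miR-34a result. Of the tested markers, 0 of 3 hepatocyte, 0 of 3 blood and immune and 0 of 1 endothelial miRNAs were called at any dose against control, and 1 of 1 mesenchymal miRNA, miR-199a-3p, was lower at 75 mg/kg/day. The summed scaled total gene signal of the 7 blood and immune markers ran from 603 to 954 in controls, 396 to 1022 at 25, 509 to 1279 at 50 and 299 to 1948 at 75 mg/kg/day, and so overlapped at every dose. That of the 5 mesenchymal markers ran from 45.4 to 56.04 in controls and from 25.6 to 61.7 at 75 mg/kg/day. The 4 skeletal muscle markers summed to 57.2 on replicate 3 at 50 mg/kg/day and to at most 1.20 elsewhere in the dosed and control groups, and without that array miR-34a kept its call at 50 mg/kg/day. The part of these cell types in the miR-34a result was not tested.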

How the data were processed

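Liver miRNA of 18 animals was hybridised to Agilent 1-colour mouse miRNA arrays. Per the sample records and the study's methods, the deposited scanner intensity values came from Agilent Feature Extraction 10.7.3.1. The authors also deposited a table of normalised log2 values, used as an alternative. Its column medians were 5.74 to 5.76 and its columns correlated with log2 median signal at r = 0.991 to 1.000 over 574 names. Per the study's methods these were made by cyclic lowess from signal without background subtraction, with the median over repeated probes. No centring of the table is described.

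Here, median signal without background subtraction was normalised over spots by cyclic loess on the log2 scale. Outlier spots were left out, and the median over spots was taken per probe. The value of a name was the mean over its tested probes, whether or not a probe was present on that array. The control values of miR-34a therefore include its dimmer probe, which was not present on any control. Comparisons were fitted over all 18 arrays in limma 3.58.1 (R 4.3.3) with dose and slide, with the Benjamini-Hochberg adjustment and a threshold of 0.05, and the method was tested on simulated data. Exact permutation tests used all splits or splits within slides, and the likeness test 100000 shuffles within slides. Background-subtracted signals were scaled to percentile 75 of the names detected on all 18 arrays. For a bound on a fold, a dim probe was raised on each array to the dimmest probe that was well above background there, where it lay under it. The number of arrays limits the precision, and no spot was saturated.

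The members, gene lists and tests were chosen with earlier results of these data known. Named in the text were the 4 members and their probes, the other arm and same-seed miRNAs, miR-122, the 3 miRNAs most like miR-34a and p53-linked miRNAs past the threshold. MiR-451, miR-21, let-7c, miR-130a and miR-26a were named after their values were seen. Alternatives were other normalizations, background corrections, filters, slide terms and leaving out each array, and, added after seeing the data, leaving out slide 2, the number of detected names as a covariate, and the same settings for miR-199a-3p and miR-15b.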

Additional observations from a re-analysis of the deposited data

Results flagged for a closer look

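The 3 dose groups of 5 arrays were examined in 12 related measures of the same arrays, 36 sets of values in all. In 3 of these sets 1 array lay far from the others by Dixon's test at the 95% level, which by chance alone marks about 5% of sets. All 3 were at 50 mg/kg/day. The normalised log2 signal of the brighter miR-34a probe was 6.84 on replicate 2, where the nearest other array read 7.36. That of the dimmer miR-34a probe was 6.87 on replicate 1, where the nearest other array read 6.50. The ratio of 1 miR-34b-3p probe (A_54_P2450) to the negative-control median was 0.908 on replicate 5, with the nearest other array at 0.954.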

How the results depend on the processing

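No call for miR-34a changed at 25, 50 or 75 mg/kg/day against control, or on the slope over dose, in any of 15 alternatives or 18 fits without 1 array. All kept the sign, with log2 changes of 0.21 to 1.58, 0.95 to 3.59, 1.84 to 5.05 and 0.64 to 1.70 over the alternatives. The highest of each came from background-subtracted total gene signal.

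The rise from 25 to 50 mg/kg/day was not past the threshold with no filter on dim probes (0.74, adjusted P = 0.267), no slide in the fit (0.59, adjusted P = 0.261) or without slide 2 (0.68, adjusted P = 0.193), and without 1 array it ranged from 0.62 to 0.90. That from 50 to 75 mg/kg/day missed it with total gene signal (1.46, adjusted P = 0.0522). The curvature was -0.12 with total gene signal and past the threshold with the authors' values (0.60, adjusted P = 0.0397). The dimmer probe at 50 mg/kg/day missed the threshold with no filter (0.86, adjusted P = 0.0628), no slide in the fit (0.70, adjusted P = 0.112) or without slide 2 (0.78, adjusted P = 0.0858), and without 1 array it ranged from 0.75 to 1.04. The fall of miR-199a-3p at 75 mg/kg/day was past the threshold in 10 of 15 alternatives, and missed it with quantile normalization (adjusted P = 0.109), array medians (0.627), processed signal (0.149), total gene signal (0.308) and no slide (0.0612). The slope of miR-15b was past it in 10 of 15 and was -0.0023 with array medians centred. The cause was not tested.

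The number of names past the threshold was 0, 2 and 4 at 25, 50 and 75 mg/kg/day against control and ran over the alternatives from 0 to 7, 1 to 4 and 1 to 9. It was 1 from 25 to 50 (0 to 5), 1 from 50 to 75 (0 to 2) and 7 on the slope (1 to 13). Of the 4 names at 75 mg/kg/day 1 was higher and 3 lower, against 9 higher and 0 lower with total gene signal and 4 higher and 0 lower with processed signal. The median change of all names at 75 mg/kg/day was -0.25 with array medians centred, 0.18 with total gene signal, 0.10 with processed signal, -0.11 with the authors' values and -0.03 in the fit reported above. No paired analysis was possible because the labels carry no replicate numbers. Levels near the negative controls limit what can be said of miR-34b, miR-34c and the dimmer miR-34a probe.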
